A study of Mus musculus with 12 samples.

Results

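NRF2, the transcription factor encoded by Nfe2l2, is the main switch of the antioxidant response. In resting cells the adaptor protein KEAP1 binds NRF2 and directs it to degradation, and oxidants or electrophiles release it. Freed NRF2 pairs with a small MAF protein on the antioxidant response element (ARE) of genes that make glutathione, reduce thioredoxin and peroxides, and break down heme and quinones, and p300, an acetyltransferase, is a known coactivator of NRF2. In the alveolus these genes belong to the defence of the epithelium and of the resident macrophages, and bleomycin, a drug that makes reactive oxygen with iron and breaks DNA, burdens it.

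The NRF2 antioxidant genes described here are Nfe2l2 itself and 9 of its known targets, Slc7a11, Gclc, Gclm, Gsr, Txnrd1, Prdx1, Srxn1, Hmox1 and Nqo1, taken by gene symbol and not by any measured value. These 10 genes are among 23238 symbols, and all 10 were among the 13054 genes that passed the filter on low counts.

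RNA was sequenced from alveolar type II (ATII) cells, the surfactant-making cells of the lung, which were dissociated from mouse lungs and sorted by flow cytometry for CD74 and EpCAM, with 3 libraries in each of 4 groups. In the study's main text, Con mice carried floxed p300 alleles (Spc-p300 f/f) and received PBS into the trachea. The labels call them WT and negative control. BLM mice of the same genotype received 4 mg/kg bleomycin. KO mice had p300 deleted in ATII cells (Spc-p300 d/d) and received PBS, and KOBLM mice of that genotype received the same dose of bleomycin. The treatment notes, which are the same for every sample, give tamoxifen at 10 mg/kg to 8-week-old mice before bleomycin. For other measurements the study describes Spc-p300 f/f mice with or without tamoxifen, so if the Con and BLM mice had none, the drug and the deletion cannot be told apart here. The deletion is driven by Spc-CreER(T2), which acts in cells that use the surfactant protein C promoter, and removes exon 9 of p300, so cells of other types in the sort keep the gene. The sorting methods for the sequenced cells differ, naming C57BL/6 mice beside the ATII-specific p300 KO mice, aged 8 to 10 weeks. If the Con and BLM mice were C57BL/6 without floxed alleles, strain or allele and the deletion cannot be told apart here. The day of harvest is not given in the sources used here, and each isolation used 1 mouse.

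Each library held between 7005005 and 11153154 counts of reads from transcript 3′ ends, without correction for length, and 3 counts, taken as the floor of detection, equalled 0.269 to 0.428 CPM (a count divided by the sum of its library and multiplied by 1000000). Floors cover counting error only. Counts of Ep300, the targeted gene, were 1056, 1341 and 541 in the Con libraries, 832, 686 and 475 in the BLM libraries, 1434, 1118 and 1113 in those labelled KO, and 1266, 563 and 866 in those labelled KOBLM. Reads from the 3′ end need not cover the deleted exon, and their positions were not examined, so these values do not check the labels. The study itself reports the deletion by qRT-PCR of isolated ATII cells and by staining of lungs. The 17 macrophage markers summed to 8185 to 19352 CPM in 11 libraries. The 13 ATII markers summed to 802 to 3980 CPM over all 12 libraries. Within these ATII sums Cd74, a gene of the sort, gave 460 to 2247 CPM, and Sftpc, the surfactant protein C gene, 0.6 to 612 CPM. Transcripts of macrophages were thus read in the sort, and in these 11 libraries their markers summed higher than those of ATII cells. The third BLM library (BLM 3) stood apart. It had 934 CPM of macrophage markers, Dppa5a, a gene of pluripotent cells, at 722 CPM against 0.7 CPM or less elsewhere, and Spearman correlations of 0.473 and 0.478 with its group, against 0.693 to 0.889 for the other pairs. Rn45s, the precursor of ribosomal RNA, took 2.04% to 21.6% of counts, with the top share in the second KO library (KO 2). In bulk samples fewer cells of a type and less RNA per cell cannot be told apart.

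The sequence that NRF2 recognises was looked for in the RefSeq promoter windows of the members (build GRCm38.p6, the sequence of mm10), each 250 bases before to 50 bases after a transcription start. The letters searched were the ARE core TGACNNNGC on both strands, which 12.39% of all 32851 windows hold. Windows were given for 7 members, 9 windows in all, and 5 of these members held the core in 1 window each. Over all genes with a window, 13.99% held it in at least 1. The other windows of Txnrd1 had no match. Slc7a11 and Nqo1 had no match in theirs, and Hmox1, Gclc and Gsr were not in the table. The matches are shown with 10 bases on each side because they place the members' shared letters at their starts, and capitals mark the core or its reverse complement, read along the gene's strand.
Nfe2l2, chr2:75704885-75704913, minus strand: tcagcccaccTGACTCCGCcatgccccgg
Srxn1, chr2:152105542-152105570, plus strand: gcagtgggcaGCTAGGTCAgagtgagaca
Gclm, chr3:122245413-122245441, plus strand: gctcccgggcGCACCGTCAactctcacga
Prdx1, chr4:116685456-116685484, plus strand: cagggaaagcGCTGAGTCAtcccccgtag
Txnrd1, chr10:82859104-82859132, plus strand: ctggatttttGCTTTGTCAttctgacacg
The core began 240 bases before the start in Nfe2l2, 134 before it in Gclm, 133 before it in Prdx1, 92 before it in Txnrd1 and 29 bases after it in Srxn1. The Prdx1 core overlaps the letters TGACTCA of the AP-1 site, which 5.2% of windows hold. A match in the letters is a description and says nothing of binding in these cells.

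The clearest pattern across the groups was that of Slc7a11 (chr3:50364936-50499087), the subunit of the cystine-glutamate exchanger that brings in the cystine for glutathione. Slc7a11 stood at 12.3, 3.96 and 3.39 CPM in the Con libraries, at 175, 87.7 and 36.0 in BLM, at 35.3, 288 and 45.5 in KO, and at 141, 0 and 303 in KOBLM. All BLM and KO libraries lay above all Con libraries, while KOBLM held both the top value of the series and a library with no read, where the floor was 0.289 CPM.

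Positions are those of GENCODE M21 on GRCm38. Comparisons used the quasi-likelihood test of edgeR on all 4 groups. The threshold, that of the study, asked for an unadjusted p under 0.05 together with a change of more than 1.5-fold, and p-values with Benjamini-Hochberg adjustment over all genes stand beside it. No gene of the 13054 had an adjusted p under 0.05 in any of 7 comparisons by edgeR, against 188 to 584 genes past the fold and unadjusted threshold, and DESeq2 gave 57 to 114 genes with a fold over 1.5 at an adjusted p under 0.05, none of them a member. The biological coefficient of variation common to all genes was 1.44. For single genes the exact two-sided permutation test of 3 against 3 libraries cannot give a p below 0.1.

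**Figure D1:**
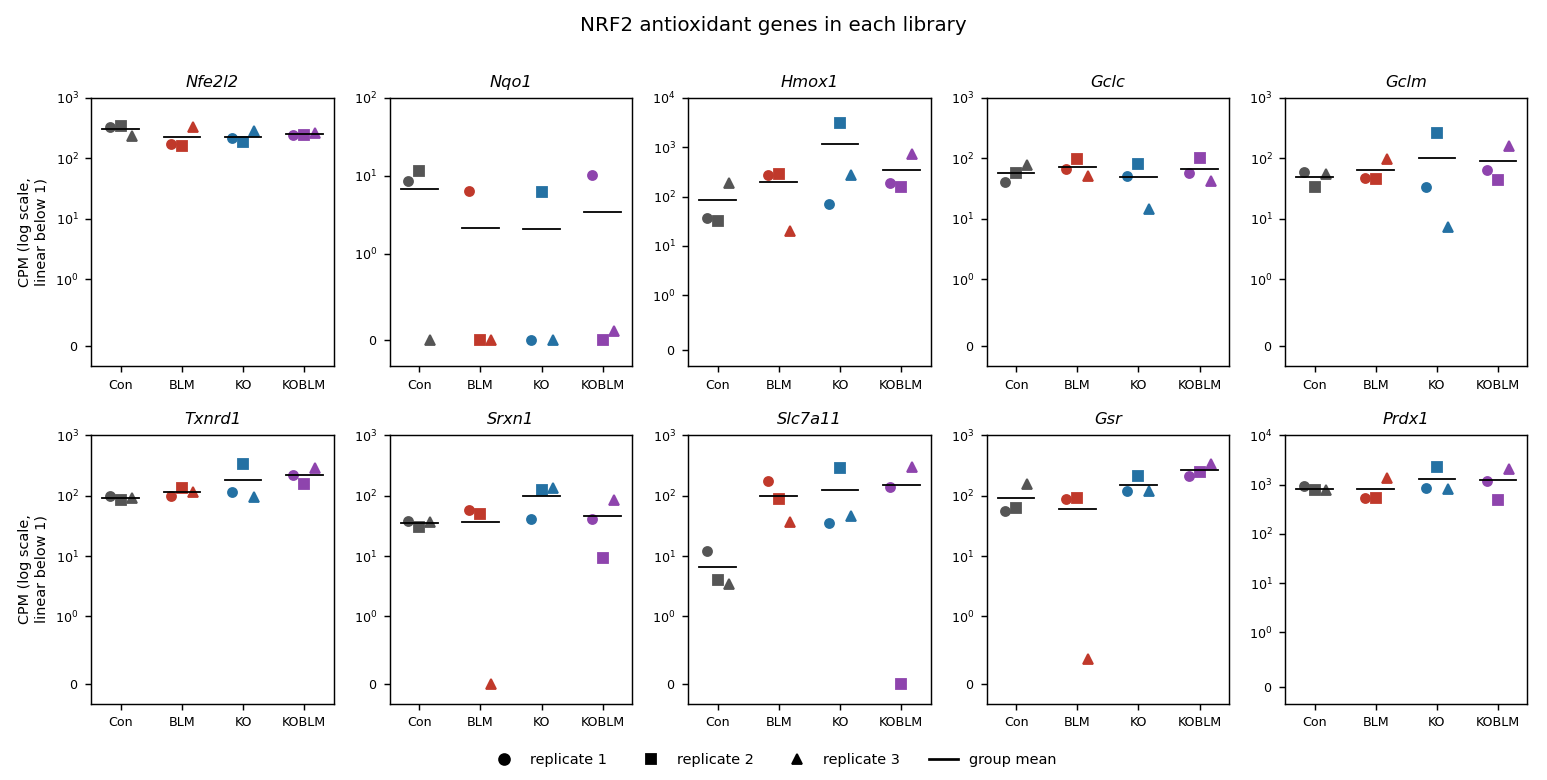
CPM of the 10 NRF2 antioxidant genes (1 panel each, log scale that turns linear below 1 CPM) in the 3 libraries of each group, with a line at the group mean. Slc7a11 is below 13 CPM in Con and above 35 CPM in every BLM and KO library, whereas Nfe2l2 stays between 160.1 and 349 CPM in all 12 libraries.

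Nfe2l2 (chr2:75675513-75704663) was the steadiest member. It was read at 327, 349 and 231 CPM in Con, at 174, 160.1 and 334 in BLM, at 218, 186 and 286 in KO, and at 246, 242 and 264 in KOBLM. The groups overlapped, and the top library had 1.43 times the median of all 12. Its log2 fold change was -0.49 (SE 0.44) in BLM against Con and 0.33 (SE 0.44) in KOBLM against BLM, and it passed the threshold in none of the 7 comparisons. The level of this transcript is not the amount of NRF2 protein, which is set mainly by its degradation.

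Among the genes of glutathione supply, Gclc (chr9:77754535-77794489), the catalytic subunit of the enzyme that makes the first step of glutathione synthesis, had 39.9, 57.4 and 76.2 CPM in Con, 67.0, 98.3 and 51.6 in BLM, 50.8, 81.0 and 14.2 in KO, and 57.8, 99.6 and 42.9 in KOBLM. Gclm (chr3:122245487-122267215), its modifier subunit, had 58.8, 33.0 and 55.3 CPM in Con, 48.1, 44.7 and 96.6 in BLM, 33.9, 261 and 7.22 in KO, and 63.6, 44.0 and 163 in KOBLM. The groups overlapped for both subunits, and the top value of Gclm came from KO 2 and its lowest from another KO library. Gsr (chr8:33653238-33698162), glutathione reductase, which returns oxidised glutathione to its reduced form, had 55.9, 63.0 and 154 CPM in Con, 87.5, 90.9 and 0.359 in BLM, 118, 213 and 121 in KO, and 212, 247 and 328 in KOBLM. Every KOBLM library lay above every Con and BLM library for Gsr, and the lowest KOBLM value was just under the top KO value.

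In the thioredoxin branch, Txnrd1 (chr10:82833951-82897724), the reductase that recycles thioredoxin, had 99.4, 84.7 and 91.1 CPM in Con, 97.1, 134 and 116 in BLM, 114, 338 and 96.4 in KO, and 219.6, 156 and 292 in KOBLM. Con libraries lay close together, and each KOBLM library was above all Con and BLM libraries. Prdx1 (chr4:116685599-116700000), a peroxiredoxin that removes hydrogen peroxide, had 925, 788 and 781 CPM in Con, 529, 542 and 1347 in BLM, 841, 2251 and 828 in KO, and 1179, 486 and 2075 in KOBLM. Srxn1 (chr2:152105524-152111376), sulfiredoxin, which repairs over-oxidised peroxiredoxins, had 38.5, 30.6 and 37.2 CPM in Con, 58.4, 50.7 and 0 in BLM, 41.9, 124 and 133 in KO, and 40.9, 9.15 and 85.6 in KOBLM. For Prdx1 1 library of BLM, 1 of KO and 2 of KOBLM lay above all Con libraries and the groups overlapped, and for Srxn1 all KO libraries lay above Con while BLM 3 had no read, with a floor of 0.269 CPM there.

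Hmox1 (chr8:75093618-75100593), heme oxygenase 1, which degrades heme and is abundant in macrophages that clear red cells, varied most in CPM. It had 36.8, 31.9 and 184 CPM in Con, 276, 285 and 20.2 in BLM, 69.9, 3117 and 276 in KO, and 185, 154 and 714 in KOBLM. KO 2 was 4.37 times the next library and 16.9 times the median of the 12, and all 4 groups overlapped. Nqo1 (chr8:107388225-107403205), the quinone reductase often used as a readout of NRF2, was barely read. Its counts were 64, 109 and 0 in Con, 45, 0 and 0 in BLM, 0, 45 and 0 in KO, and 76, 0 and 1 in KOBLM, so 7 libraries lay at or under the floor of 3 counts and no order of the groups could be read from it.

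**Figure D2:**
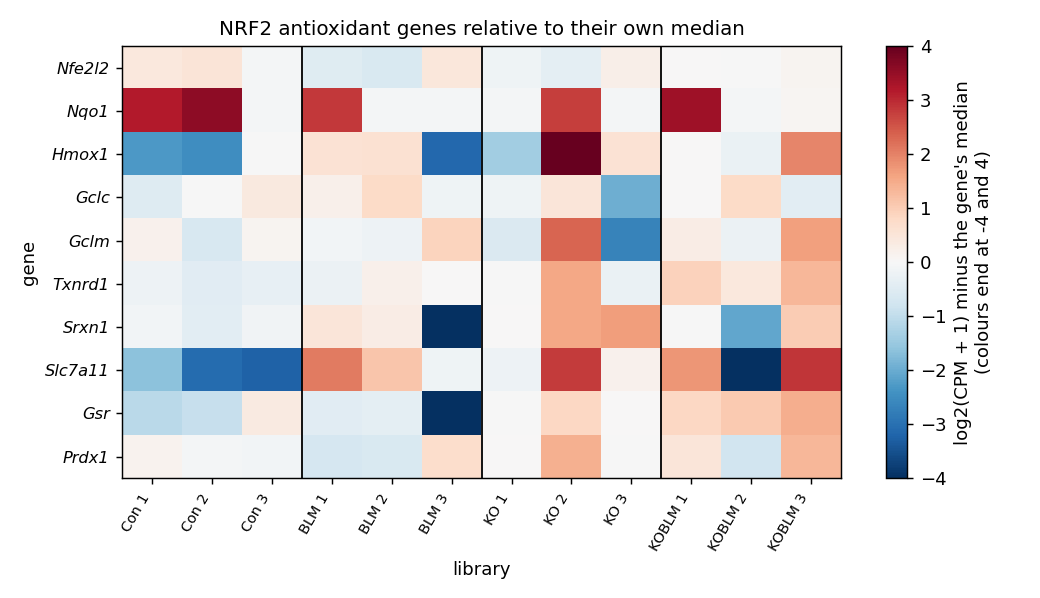
Level of each gene in each library as log2(CPM + 1) minus the median of that gene over the 12 libraries, with vertical lines between the groups and colours that end at -4 and 4. The columns of KO 2 and KOBLM 3 are the reddest, with 9 of 10 genes above their median in each, as also in KOBLM 1, where the differences are smaller.

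By group means, Con was lowest for 5 of the 10 members, KO was highest for 4, KOBLM for 3, Con for 2 and BLM for 1. Of the 30 pairs of neighbouring groups in these orders, 1 did not overlap, Con and BLM for Slc7a11. Of all 60 pairs of groups over the 10 members, 8 did not overlap. These were KO above Con for Slc7a11 and Srxn1 (as for 2.18% of all genes) and BLM above Con for Slc7a11 (5.32%). The others were KOBLM above BLM for Gsr and Txnrd1 (6.04%), KOBLM above Con for the same genes, and KO above BLM for Gsr. For KOBLM with Con and KO with BLM the share of all genes was not counted, so the 8 pairs have no full background.

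Most of the high values came from KO 2 and the third KOBLM library (KOBLM 3). The 10 members together had 1603, 1453 and 1613 CPM in Con, 1519, 1493 and 2001 in BLM, 1523, 6864 and 1807 in KO, and 2356, 1439 and 4268 in KOBLM. KO 2 was the top library for 4 members and among the top 3 for 8, and KOBLM 3 was the top for 2 and among the top 3 for 7. Without Hmox1 and Prdx1 the sums were 1497 CPM in KO 2 and 1479 in KOBLM 3, against 612 to 992 in the others.

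The markers of cell types differed in those libraries too. Summed ATII markers ran from 1645 to 3980 CPM among Con libraries, from 1628 to 2905 among BLM, from 802 to 2615 among KO and from 1255 to 1795 among KOBLM, with the 2 lowest sums in KO 2 and KOBLM 3. Sftpc, the surfactant protein C gene, was at 11.1 CPM in KO 2 and 0.6 in KOBLM 3, against 18.1 to 612 elsewhere, and Sftpb had no read in KOBLM 3. Epcam, a gene of the sort, was at 2.75 CPM in KO 2 and 2.99 in KOBLM 3, against 9.56 to 329 elsewhere. Slc34a2 had no read in either. Cd74, the other gene of the sort, was at 460 CPM in KO 2 and 617 in KOBLM 3, against 476 to 2247 elsewhere, and so made up much of both sums. The ATII list did not move as one there, since in KOBLM 3 Lyz1 was at 451 CPM, the second highest of the 12 libraries, and Napsa at 151 CPM, the fourth highest. Lyz2, a lysozyme gene of the macrophage list, had its highest value in KOBLM 3 too, at 3314 CPM. Which cells gave the Lyz1 reads was not tested. Summed macrophage markers ran from 8931 to 12367 CPM among Con libraries, from 934 to 11469 among BLM, from 11399 to 13157 among KO and from 8185 to 19352 among KOBLM, with the 2 highest sums in KO 2 and KOBLM 3, and Adgre1 and Marco had no read in BLM 3. The place of KO 2 came from Ctss, a protease of phagocytes, at 5817 CPM. Without Ctss the sum was 7340 CPM in KO 2, the sixth of 12, and 10670 in KOBLM 3, still the highest. Siglecf, Mrc1, Itgax and Ptprc, other genes of the list, were at 8.93, 521, 247 and 283 CPM in KO 2, against 175 to 198, 1001 to 1732, 522 to 728 and 441 to 696 CPM over the Con libraries, while Marco was at 1422 CPM in KO 2 against 291 to 792 over Con. For the p300 label averaged over treatments, 16 of 17 macrophage markers had a log2 fold change above 0, with 1 past a fold of 1.5 and an unadjusted p under 0.05 (Itgax), and 9 of 13 ATII markers were below 0, with 1 past it (Etv5), beside 2.9% of all genes. The median over all genes was -0.01. The side without the KO label holds BLM 3, with its 934 CPM of macrophage markers, and the markers' changes without BLM 3 are not given here. In BLM against Con, where 4.27% of all genes passed, 4 of 17 macrophage markers were higher and 3 lower, and 3 of 13 ATII markers were lower. Of 10 fibroblast markers 8 could be tested, and Acta2, Col1a2 and Col3a1 were higher, with a median log2 fold change of 2.52 over the 8. Summed fibroblast markers were at 1141 to 1921 CPM in the BLM libraries against 48.5 to 689 CPM in the others, so BLM stood apart for them as for the pathway genes Mt2, Sod1, Gstm1 and Idh1 described further on. The part of these cell types in the members' and pathway genes' values was not tested.

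**Figure D3:**
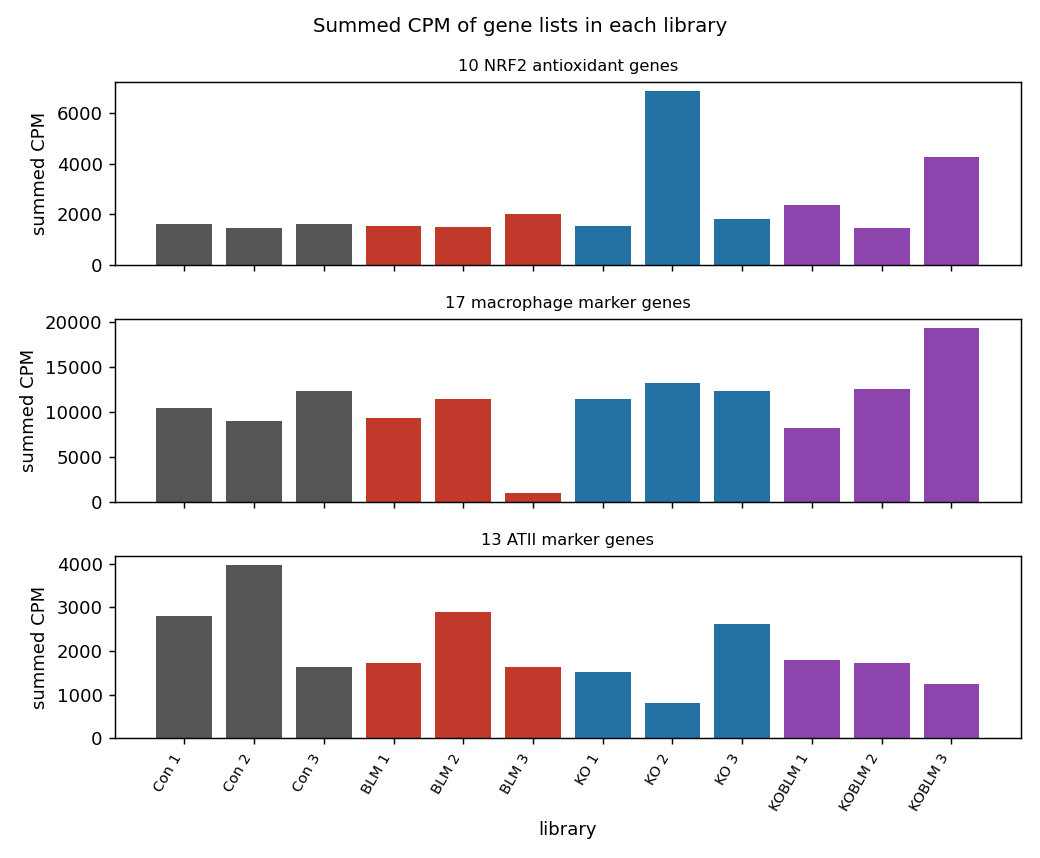
Summed CPM in each library of the 10 NRF2 antioxidant genes (top), 17 macrophage markers (middle) and 13 ATII markers (bottom), coloured by group. KO 2 and KOBLM 3 have the 2 tallest bars for the antioxidant genes and for macrophage markers and the 2 shortest for ATII markers, and BLM 3 has 934 CPM of macrophage markers.

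BLM against Con asks how bleomycin changed the genes in mice with p300. Slc7a11 rose, with a log2 fold change of 4.02 (SE 1.70, edgeR unadjusted p = 0.0332, Benjamini-Hochberg adjusted p = 0.995), and was higher in 3 of 3 BLM libraries, with an exact permutation p of 0.1. It was the 1 member of 10 past the threshold, against 4.27% of all genes and 2.19% in that direction, and CPM that lay higher without overlap were found for 5.32% of genes. Hmox1 had a log2 fold change of 1.36 (SE 1.26) and Txnrd1 of 0.36 (SE 0.61), and Gclm of 0.32 (SE 1.02). The median over the members was 0.25, against -0.08 over all genes, with 6 members above 0 and 4 below, and it was 0.12 without Con 2 and -0.0068 without BLM 2. The Slc7a11 call was lost without Con 2 (3.78), Con 3 (3.69) or BLM 1 (3.33), and held without BLM 3, at 4.46.

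KO against Con asks how the mice labelled as p300-deleted differed from the Con mice without bleomycin, and it shares its Con libraries with the comparison above. Slc7a11 rose by 4.49 on the log2 scale (SE 1.74, edgeR unadjusted p = 0.0217, Benjamini-Hochberg adjusted p = 1) with no overlap (exact permutation p of 0.1), and Hmox1 by 4.09 (SE 1.40, unadjusted p = 0.0111, adjusted p = 1) with overlapping groups (exact permutation p of 0.2). These were 2 of 10 members, against 1.44% of all genes and 0.536% in that direction. Srxn1 also lay higher in 3 of 3 KO libraries, at 1.61 (SE 1.43, edgeR unadjusted p = 0.281, exact permutation p of 0.1), a pattern that 2.18% of genes showed, and no member lay lower without overlap, as 7.56% of genes did. Txnrd1 had 1.20 (SE 0.62), Gclm 1.33 (SE 1.04) and Prdx1 0.85 (SE 0.61), and the median over the members was 1.05 against -0.09 over all genes. KO 2 decided this comparison. Txnrd1 passed when KO 3 was left out (1.57). Without KO 2 no member passed, Hmox1 had 1.05 and Slc7a11 2.65, Txnrd1 had 0.25, Gclm turned to -1.15, and the median over the members was 0.15. The Slc7a11 call was also lost without Con 2 (4.24) or Con 3 (4.16).

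KOBLM against BLM asks how the state under bleomycin differed with the KO label. None of the 10 members passed the threshold by edgeR, none had an unadjusted p under 0.05, and 3.16% of all genes passed. DESeq2 called 1 member, Gsr, against 5.78% of all genes. Gsr had a log2 fold change of 2.11 (SE 1.13, edgeR unadjusted p = 0.0831) and Txnrd1 of 1.04 (SE 0.62, unadjusted p = 0.115), both higher in 3 of 3 KOBLM libraries with an exact permutation p of 0.1, as were 6.04% of genes. The median over the members was 0.71, against 0.10 over all genes, and fell to 0.16 without KOBLM 3 and 0.44 without BLM 3, and was 1.24 without KOBLM 2. Gsr had 4 counts in BLM 3, and without that library its change was 1.53 and passed the threshold.

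KOBLM against KO asks what bleomycin changed in the mice labelled as p300-deleted. No member passed by edgeR or DESeq2 or had an edgeR unadjusted p under 0.05. Past the threshold were 1.69% of all genes by edgeR and 3.52% by DESeq2. The median over the members was 0.16 against 0.08 over all genes. No member lay higher without overlap, as 3.95% of genes did. Hmox1 had -1.85 (SE 1.28), and without KO 2 this turned to 1.19.

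**Figure D4:**
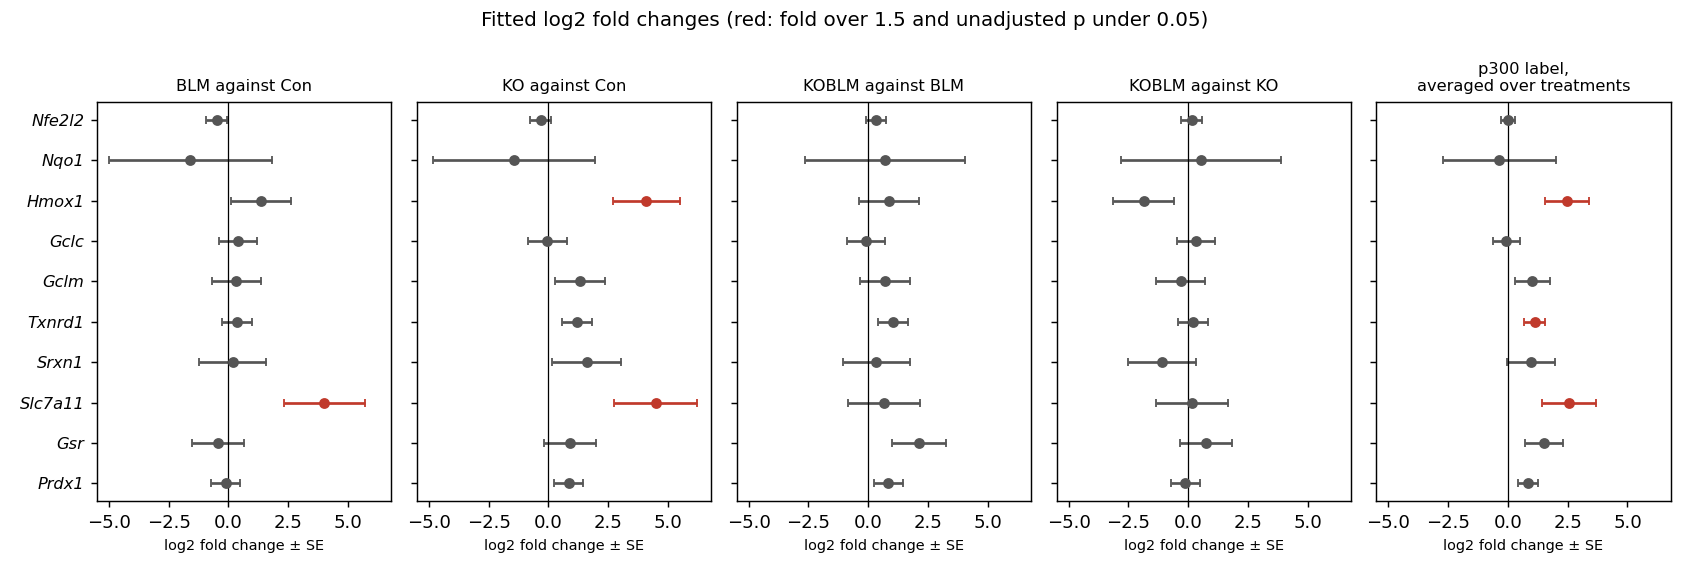
Log2 fold change with its SE (horizontal bars) of each gene in 4 comparisons of 2 groups and for the p300 label averaged over both treatments, from edgeR's quasi-likelihood fit of all libraries, with red points past a fold of 1.5 and an unadjusted p under 0.05. Slc7a11 is red in BLM against Con, and Slc7a11 and Hmox1 in KO against Con, and they are joined by Txnrd1 when the treatments are averaged.

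Averaged over both treatments, the libraries labelled KO had more Hmox1 (2.48 on the log2 scale, SE 0.92, edgeR unadjusted p = 0.0175), Txnrd1 (1.12, SE 0.44, unadjusted p = 0.0226) and Slc7a11 (2.57, SE 1.13, unadjusted p = 0.0389), each with a Benjamini-Hochberg adjusted p that rounds to 1. They were 3 of 10 members, against 2.9% of all genes and 0.958% in that direction, and the median over the members was 0.99 against -0.01 over all genes, with 0.56 without KO 2 and 0.57 without KOBLM 3. Gsr had 1.51 (SE 0.79, edgeR unadjusted p = 0.0753) and Prdx1 0.84 (SE 0.43, unadjusted p = 0.0689), which did not pass. The 3 calls rested on single libraries. Without KO 2 none passed (Hmox1 0.97, Txnrd1 0.66, Slc7a11 1.66), and without KOBLM 3 none passed (Hmox1 1.92, Txnrd1 0.98, Slc7a11 2.01). Without BLM 3 the members past the threshold were 4, beside 4.64% of all genes, with Gsr (1.21) and Prdx1 (1.03) added and Slc7a11 lost (2.35). The Slc7a11 call was also lost without Con 2 (2.45), Con 3 (2.41) or BLM 2 (2.55), and Prdx1 passed without KO 1 (0.97), KO 3 (0.999) or KOBLM 2 (1.04).

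Averaged over both genotypes, bleomycin gave no member past the threshold by edgeR, against 4.47% of all genes, and none with an unadjusted p under 0.05. DESeq2 called 1 member, Slc7a11, against 6.43% of all genes. Slc7a11 had 2.10 (SE 1.11, edgeR unadjusted p = 0.079). It passed without BLM 3 (2.32), KO 2 (2.99) or KOBLM 2 (2.39), the last being the library without an Slc7a11 read.

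The interaction term asks whether the effect of bleomycin differed with the genotype. Here no member passed by edgeR or DESeq2 or had an edgeR unadjusted p under 0.05. Past the threshold were 2.82% of all genes by edgeR and 4.79% by DESeq2. The difference of the bleomycin effects was -3.21 for Hmox1 (SE 1.79, edgeR unadjusted p = 0.0943) and -3.84 for Slc7a11 (SE 2.20, unadjusted p = 0.103). Hmox1 passed without Con 3 (-4.45), BLM 3 (-3.76), KO 1 (-3.77) or KOBLM 3 (-4.33), and had -0.15 without KO 2. Slc7a11 passed without KOBLM 2 (-3.25).

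Around the members, 6 lists of the same pathway held 93 other genes, of which 85 could be tested. In BLM against Con 3 of the 85 were higher and 2 lower (5.88% in both directions, beside 4.27% of all genes, 2.19% higher and 2.08% lower). In KOBLM against BLM 2 were higher and 2 lower (4.71%, beside 3.16%, of which 1.39% higher and 1.78% lower). In KO against Con the counts were 1 and 1 (2.35%, beside 1.44%, of which 0.536% higher and 0.904% lower). In KOBLM against KO none passed by edgeR, beside 1.69% of all genes, and none had an unadjusted p under 0.05. Averaged over genotypes bleomycin gave 5 higher and 1 lower (7.06%, beside 4.47%, of which 2.72% higher and 1.75% lower). The p300 label gave 4 and 3 (8.24%, beside 2.9%, of which 0.958% higher and 1.95% lower). The interaction gave 1 and 4 (5.88%, beside 2.82%, of which 1.51% higher and 1.31% lower). The NRF2 regulators and partners (15 genes, Keap1, Bach1 and the small MAF genes among them) and the thioredoxin and peroxiredoxin list (15 genes) had no gene past the threshold, and none with an edgeR unadjusted p under 0.05, in any comparison.

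Metallothionein 2 (Mt2), a metal-binding protein that metals and glucocorticoids as well as oxidants induce, had 181, 204 and 205 CPM in Con, 1959, 2226 and 778 in BLM, 298, 86.1 and 429.9 in KO, and 199, 490.4 and 97.2 in KOBLM. BLM lay above the other groups with no overlap. Mt2 rose by 3.16 on the log2 scale in BLM against Con (SE 0.70, edgeR unadjusted p = 0.000457, Benjamini-Hochberg adjusted p = 0.90) and had -2.68 in KOBLM against BLM (SE 0.68, unadjusted p = 0.00151, adjusted p = 1), and both calls held with each library left out in turn. The same BLM libraries enter both comparisons.

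Gstm1, a glutathione transferase of xenobiotics, showed the reverse order. It had 381, 261 and 474 CPM in Con, 56.1, 93.5 and 135 in BLM, 382, 331 and 277 in KO, and 178, 584 and 467 in KOBLM. Gstm1 fell by 1.98 in BLM against Con (SE 0.54, edgeR unadjusted p = 0.00236) and was higher by 2.23 in KOBLM against BLM (SE 0.54, unadjusted p = 0.00101), with Benjamini-Hochberg adjusted p of 0.995 and 1, and both held with each library left out in turn. Groups that lay lower without overlap in BLM against Con were found for 11.8% of all genes.

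Idh1, cytosolic isocitrate dehydrogenase, which supplies NADPH, was at 880, 716 and 778 CPM in Con, 338, 296 and 71.5 in BLM, 847, 633 and 970.1 in KO, and 437, 1037 and 1033 in KOBLM. BLM again lay below all other libraries. Idh1 fell by 1.65 in BLM against Con (SE 0.59, edgeR unadjusted p = 0.0140, Benjamini-Hochberg adjusted p = 0.995) and was higher by 1.83 in KOBLM against BLM (SE 0.59, unadjusted p = 0.00772, adjusted p = 1).

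Sod1, the cytosolic superoxide dismutase, had 170.0, 278 and 218 CPM in Con, 357, 372 and 1688 in BLM, 211, 228 and 209 in KO, and 166, 165 and 294 in KOBLM. BLM was above the rest, with BLM 3 far above. Sod1 rose by 1.72 in BLM against Con (SE 0.57, edgeR unadjusted p = 0.00930, Benjamini-Hochberg adjusted p = 0.995) and had -1.70 in KOBLM against BLM (SE 0.57, unadjusted p = 0.0100, adjusted p = 1), where 4.98% of all genes lay lower without overlap. Without BLM 3 both calls were lost, at 0.85 and -0.83.

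Esd, esterase D, had 56.2, 70.5 and 61.6 CPM in Con, 359, 445 and 229 in BLM, 133, 543 and 140.3 in KO, and 255, 131 and 648 in KOBLM. Con was the lowest group with no overlap. Esd rose by 2.52 in BLM against Con (SE 0.77, edgeR unadjusted p = 0.00539, Benjamini-Hochberg adjusted p = 0.995) and by 2.33 in KO against Con (SE 0.76, unadjusted p = 0.00848, adjusted p = 1), the latter without a call when KO 2 was left out (1.16).

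Ferritin light chain (Ftl1), part of the iron store, had 3402, 3006 and 3154 CPM in Con, 2548, 3183 and 823 in BLM, 4104, 7805 and 2879 in KO, and 2527, 3365 and 10302 in KOBLM. The 2 high libraries are KO 2 and KOBLM 3. Averaged over treatments Ftl1 was higher by 1.08 with the KO label (SE 0.48, edgeR unadjusted p = 0.0394), and the call was lost without KO 2 (0.78), KOBLM 3 (0.60), BLM 3 (0.86) or any 1 Con library (1.06 to 1.10).

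Fth1, the ferritin heavy chain, had no call, with a range of 688 to 8518 CPM over the 12 libraries, the top again in KOBLM 3. Others among the most-read genes of their lists, Sqstm1 (a KEAP1-binding autophagy receptor), Gsk3b, Gpx1 (glutathione peroxidase), Txn1 (thioredoxin), Txnip, Mt1 and Taldo1 (transaldolase), had no call in any comparison either. Averaged over genotypes, Sod2, the mitochondrial superoxide dismutase, rose by 0.79 (SE 0.34, edgeR unadjusted p = 0.0341) and Gpx3, a secreted peroxidase, by 1.33 (SE 0.53, unadjusted p = 0.0252), with 7 and 5 of 12 omissions of 1 library ending the call. Gsta4, a glutathione transferase, had 72 counts in Con 1, 22, 23 and 2273 in the BLM libraries, 20 in KOBLM 3 and 0 in the other 7 libraries. It was past the threshold as lower in KO against Con, where Con 1 alone had reads, as lower with the KO label and as higher for bleomycin averaged over genotypes. With KO at 0 in all 3 libraries its fitted changes depend on the prior count and are no measure of size.

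**Figure D5:**
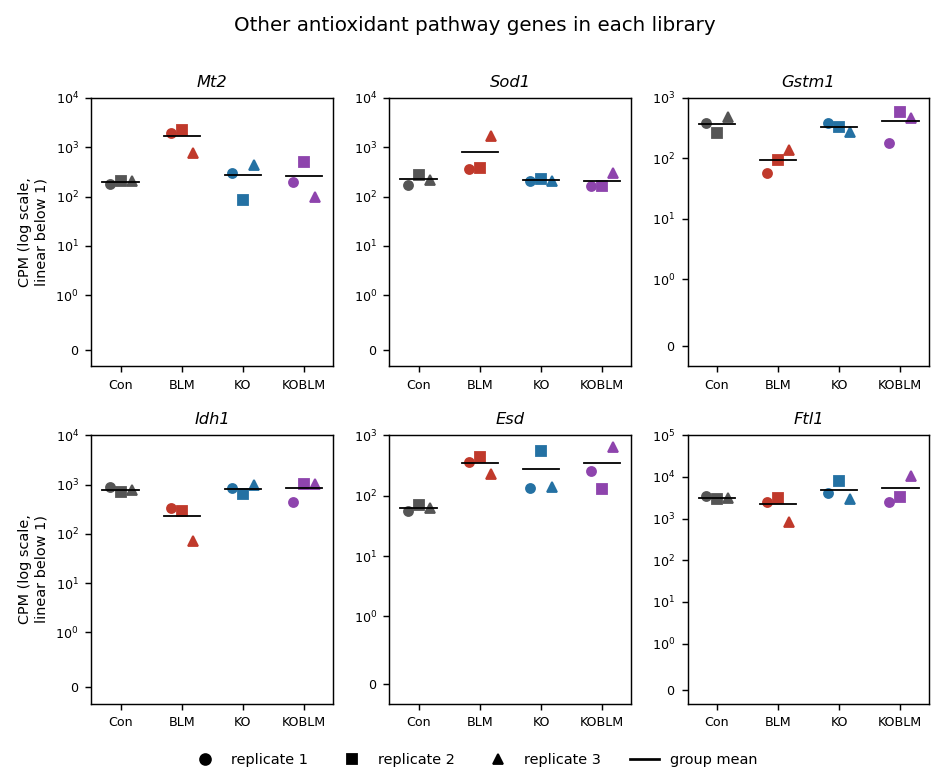
CPM of 6 other genes of the antioxidant pathway (1 panel each, log scale that turns linear below 1 CPM) in the 3 libraries of each group, with a line at the group mean. For Mt2 and Sod1 the BLM libraries lie above all others and for Gstm1 and Idh1 below, Esd is lowest in Con, and Ftl1 is highest in KO 2 and KOBLM 3.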

How the data were processed

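QuantSeq 3′ libraries of 12 samples were read single-end for 75 nt. The authors deposited raw counts per gene symbol for each library, without normalization. The submitters' processing notes name Bowtie2, edgeR and mm10, without roles. Counting on strand is not given in the sources used here. Here 79 entries of 35 repeated symbols were summed. The low-count filter was filterByExpr (edgeR 4.0.16, counts of at least 10 in a group's libraries and 15 in all), after which libraries were scaled by TMM (factors 0.84 to 1.26) and fitted with the quasi-likelihood model of 4 group means (8 residual degrees of freedom) in R 4.3.3. All tests were two-sided. Exact permutation tests used log2(TMM CPM + 1). DESeq2 1.42.0 and other settings are described in the closing section. Replicate numbers are those of the labels. The members and lists were chosen with earlier results of these data known. Named are the members, Ep300, pathway genes past the threshold in any comparison or among the 2 most read of their list, and the 5 genes most like the members.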

Additional observations from a re-analysis of the deposited data

Results flagged for a closer look

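For 5 genes of the pathway lists, and for none of the 10 members, the effect of bleomycin differed between the genotypes at an unadjusted p under 0.05 (edgeR interaction, KO label minus the others, log2 scale), each with a Benjamini-Hochberg adjusted p that rounds to 1. The difference was -3.17 for Mt2 (SE 0.93, edgeR unadjusted p = 0.00418) and 2.26 for Gstm1 (SE 0.74, unadjusted p = 0.00850), and both held with each library left out in turn. It was -1.78 for Sod1 (SE 0.80, unadjusted p = 0.0419), which 7 of 12 omissions of 1 library took past 0.05 (-0.90 without BLM 3), and -2.25 for Esd (SE 1.04, unadjusted p = 0.0480), where 8 of 12 did (-1.05 without KO 2). Aldh3a1 had 17 and 421 counts in BLM 1 and BLM 3, 39 in KO 1 and 0 in the other 9 libraries, and its fitted difference of -16.32 (unadjusted p = 0.0178) depends on the prior count and is no measure of size.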

How the results depend on the processing

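At these depths and with 3 libraries a group, counts of members past the threshold moved with single genes near it, and the cause of each move was not tested. By an adjusted p under 0.05 the count was 0 of 10 in every comparison by edgeR, and 0 by DESeq2. Counts by the fold and unadjusted threshold follow, with the share of all genes past it in brackets. With no filter on low counts, 1 member passed in KOBLM against BLM (3.69%), 1 in KOBLM against KO (1.47%) and 1 for bleomycin averaged over genotypes (5.26%). Without that filter 5 passed for the p300 label averaged over treatments (4.08%) and 2 in the interaction (4.04%). With DESeq2 1 passed in KOBLM against BLM (5.78%), 1 for bleomycin averaged (6.43%) and 4 for the p300 label (4.4%, Gsr added). A model of only the groups compared gave 3 in KO against Con (2.04%, Srxn1 added). Same-numbered libraries did not deviate together (correlations of -0.13 to 0.09 over 18 pairs, 0 above 0.1, 3 of 12 libraries closest to their own number), so the numbers do not pair the samples. With the replicate number as a block, 0 members passed in BLM against Con (3.02%), 1 in KO against Con (0.766%) and 1 for the p300 label (1.68%).

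Chosen after seeing the data, leaving out KO 2 and KOBLM 3 together gave 0 members in KO against Con (0.449% of all genes, median 0.15, Gclm -1.14). That fit had Hmox1 at 0.070 in KOBLM against KO and 0 members for the p300 label (2.65% of all genes). Leaving out BLM 3 as well gave 2 members in BLM against Con (Slc7a11, and Hmox1 at 1.87), beside 5.47% of all genes. In KOBLM against BLM 1 member passed (4.16% of all genes), and in KO against Con 0 (1.48% of all genes, median 0.15, Gclm -1.14). Hmox1 was at 0.069 in KOBLM against KO. For bleomycin averaged 1 member passed (7.47% of all genes), and for the p300 label 1 (4.29% of all genes, median 0.13).

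Leaving out 1 library at a time gave these ranges of members past the threshold, with the range of the share of all genes in brackets. They were 0 to 1 in BLM against Con (2.08% to 5.45%), 0 to 1 in KOBLM against BLM (1.67% to 3.34%) and 0 to 3 in KO against Con (0.627% to 3.2%). For bleomycin averaged they were 0 to 1 (3.46% to 7.16%), for the p300 label 0 to 4 (2.59% to 4.97%) and in the interaction 0 to 1 (2.36% to 4.82%). The median over the members ranged from 0.15 to 1.32 in KO against Con, from -0.42 to 1.17 in KOBLM against KO, from 0.16 to 1.24 in KOBLM against BLM, from 0.56 to 1.20 for the p300 label, from -0.0068 to 0.31 in BLM against Con, from -0.23 to 0.72 for bleomycin averaged and from -0.54 to 0.75 in the interaction, Gclm from -1.15 to 1.89 in KO against Con, and Hmox1 from -2.97 to 1.19 in KOBLM against KO. Where an omission left a group with 2 libraries, the others set the spread. No other log2 fold change of a single gene that was recomputed changed direction under the settings tried. DESeq2 size factors and library size alone changed no count of members past the threshold.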

Other observations

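The genes with the pattern most like the mean of the members' standardised log2 CPM over the 12 libraries, of 8903 with at least 10 CPM, were Piezo1 (Pearson r = 0.913), Nelfcd (0.899), 1700017B05Rik (0.895), Ppp1r12a (0.894) and Atp6v1g1 (0.881). Without KO 2 and KOBLM 3 the values were 0.856, 0.777, 0.811, 0.897 and 0.842. The points share library depth and the same 2 high libraries, and these values are given as a description.

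Ephx1, an epoxide hydrolase, had 32.2, 34.6 and 69.8 CPM in Con, 19.3, 27.3 and 0 in BLM, 22.2, 4.53 and 10.5 in KO, and 27.4, 72.9 and 28.8 in KOBLM. Of the 96 genes looked at, it was the 1 whose groups moved apart in opposite directions without overlap. It was lower in 3 of 3 BLM libraries than in Con, as were 11.8% of all genes, and higher in 3 of 3 KOBLM libraries than in KO, as were 3.95%. It was also lower in 3 of 3 KO libraries than in Con (exact permutation p of 0.1), as were 7.56% of all genes. None of these passed the threshold, and the difference of these effects did not pass the edgeR interaction test (unadjusted p = 0.160).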
